A study of Mus musculus with 6 samples.

Results

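Transcripts that mark the epithelium of the intestine were measured in RNA from sorted innate lymphoid cells. The 43 genes were matched by symbol to a list of known epithelial markers, which was drawn up with earlier results of these data known, and all 43 were found among the 25075 symbols of the deposited count table. They comprised 15 genes of the intestinal epithelium in general, 13 of enterocytes, 8 of goblet cells and the secretory lineage that precedes them, 2 of Paneth cells, 2 of crypt stem cells, 2 of enteroendocrine cells and 1 of tuft cells. The study compared small-intestinal group 3 innate lymphoid cells (ILC3s) of B6 mice in 2 groups of 3 libraries, described as biological replicates. The labelled control mice had the genotype Batf fl/fl PLZF-Cre-, and the labelled Batf-deficient mice Batf fl/fl PLZF-Cre+, so that both groups carried the floxed Batf alleles. Cre was driven from the gene for PLZF, a transcription factor of innate lymphoid precursors and some innate-like T cells, and age, sex and litter are not given here. The sort gate was Lin-CD90.2+KLRG1-, and each library was made by Smart-seq2 from 2000 cells, with 2 ng of RNA.

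The lining of the small intestine is a single sheet of epithelial cells renewed from stem cells in the crypts. Enterocytes absorb nutrients through a brush border of digestive enzymes and transporters and export dietary fat in lipoprotein particles. Goblet cells secrete mucus, Paneth cells at the crypt base secrete lysozyme and defensins, enteroendocrine cells release hormones, and tuft cells sense luminal signals. ILC3s lie in the lamina propria beneath this sheet and act on it through IL-22. They do not themselves make the transcripts of absorptive or secretory epithelial cells.

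Library totals ran from 8228513 to 17334207 counts, so that 3 counts corresponded to 0.155 to 0.425 CPM (read counts scaled to a common library size after TMM normalization). Batf, the targeted gene, encodes an AP-1 family transcription factor (chromosome 12, 85686669 to 85709087, mm10). It was at 15.1, 15.3 and 18.9 CPM in the labelled control libraries and at 38.2, 41.2 and 41.2 CPM in those with the Batf-deficient label, so it went against the label (log2 fold change 1.29, with an SE of 0.16 and, by edgeR, an adjusted p = 1.70e-05). The count table holds no exon-level values. Scaling on a panel of 17 genes that innate lymphoid cells share with T cells gave -1.06 for Batf (edgeR adjusted p = 7.47e-05). With panel scaling the median of all genes tested was -2.33 and 86% of them were called lower, so Batf lay above the typical gene. That panel made up 0.138% ± 0.00472 of counts in the labelled control and 0.539% ± 0.00464 in the labelled Batf-deficient libraries (SD, n = 3 each). A list of 10 ILC3 genes was also higher in the libraries labelled Batf-deficient, with 10 of 10 called on TMM scaling. Of the pancreatic acinar genes, 19 of 19 tested were lower, at 7.94% ± 0.231 against 0.000609% ± 8.76e-05 of counts. Over all genes tested, 30.2% were called higher and 34.1% lower on TMM scaling. All directions below are those of the libraries as labelled.

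Epithelial transcripts were far less abundant in the libraries labelled Batf-deficient. The 43 genes together held 2.75%, 2.70% and 2.89% of all counts in the 3 labelled control libraries and 0.0889%, 0.0875% and 0.104% of those of the labelled Batf-deficient libraries. The groups did not overlap, and the exact two-sided permutation p was 0.1, the smallest that 3 against 3 libraries allow. On the TMM scale the summed level was 24399 ± 1374 CPM against 1062 ± 61.1 CPM, a 23.0-fold difference. In bulk RNA, fewer epithelial cells, less epithelial RNA per cell and less epithelial RNA from any other source cannot be told apart.

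A filter on low counts kept 42 of the 43 genes, and Atoh1 was left out. Of the 42, 41 were lower in the libraries labelled Batf-deficient and none was higher (edgeR quasi-likelihood test, Benjamini-Hochberg adjusted p under 0.05 over 15261 genes). Over all genes tested 34.1% were called lower and 30.2% higher. The CPM of 41 members lay below the labelled control range without overlap, which held for 36.5% of all genes. The median log2 fold change was -4.78 for the members and 0.02 for all genes tested. No member was higher by DESeq2 or limma voom either, and none had a positive log2 fold change with an unadjusted p under 0.05. With scaling on the panel of lymphoid genes, which moved the median of all genes to -2.33, 42 members were called lower, where 86% of all genes were lower and 2.14% higher. With library totals, which moved that median to -0.36, 41 were lower against 42.4% of all genes lower and 20% higher.

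**Figure D1:**
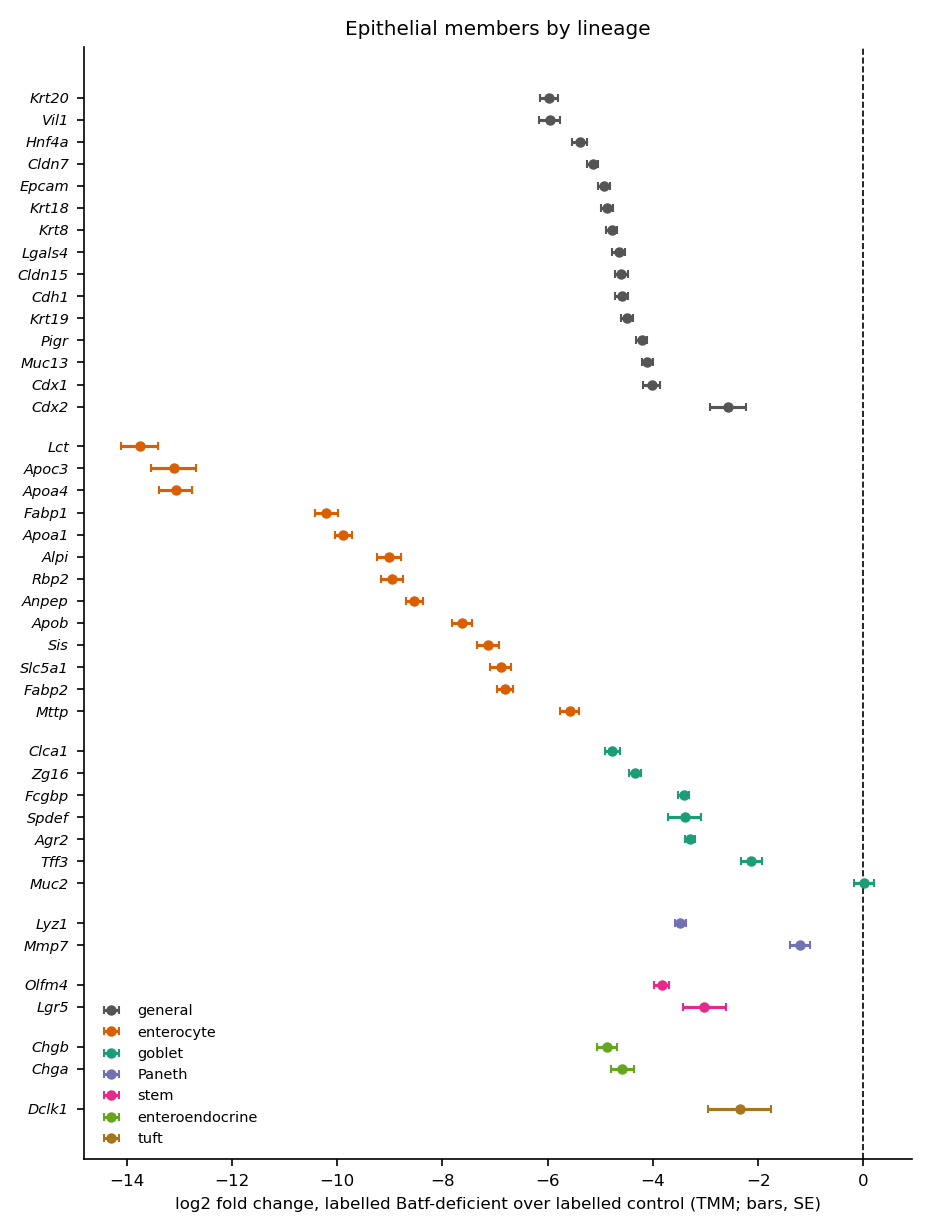
Log2 fold change (x axis, TMM scaling) with its SE for the 42 members tested, grouped by lineage. Enterocyte members run from -13.75 to -5.58, while goblet and Paneth members lie between -4.77 and 0.02.

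Genes of the epithelium in general formed the largest group. All 15 were lower, with log2 fold changes from -5.97 to -2.58 and a median of -4.65, and their summed level was 12363 ± 581 against 462 ± 26.4 CPM. Krt8, a keratin of simple epithelia (chromosome 15, 101996698 to 102004482, minus strand), was at 3828, 3799 and 4141 CPM in the labelled control libraries. In the libraries labelled Batf-deficient it was at 134, 141 and 152 CPM, a 27.6-fold difference (log2 fold change -4.78, with an SE of 0.10 and, by edgeR, an adjusted p = 7.80e-12). The 3 libraries of each group lay close together, and the gap between groups was many times their spread. Exons of other gene models overlap Krt8, Vil1, Muc13, Apoa4, Mttp, Mmp7 and Dclk1 on the other strand and Olfm4 on the same strand, so their reads cannot be fully told apart where strand was not used.

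The partner keratins behaved similarly. Krt18, which pairs with Krt8 in filaments, was 29.5-fold lower, at 581 ± 44.4 against 19.7 ± 1.42 CPM. Krt19 was 22.4-fold lower, at 1467 ± 87.5 against 65.4 ± 6.48 CPM. Krt20, a keratin of differentiated surface cells, had a larger difference: 531, 464 and 495 CPM in the labelled control and 5.67, 8.79 and 8.99 CPM in those with the Batf-deficient label, a 63.5-fold difference.

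Adhesion and junction genes were lower by similar factors. Epcam, the pan-epithelial adhesion molecule (chromosome 17, 87635979 to 87651129), was at 967, 1071 and 1049 against 34.6, 35.4 and 31.6 CPM, a log2 fold change of -4.93 (with an SE of 0.11 and, by edgeR, an adjusted p = 9.97e-12). Cdh1, which encodes E-cadherin, was at 239 ± 14.7 against 9.88 ± 0.548 CPM. The claudins Cldn7 and Cldn15, components of tight junctions, had log2 fold changes of -5.15 and -4.60. These junction genes are expressed in every lineage of the sheet.

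Vil1, which encodes the brush border actin bundler villin, was at 628, 552 and 655 CPM in the labelled control and 6.64, 9.78 and 12.4 CPM in those with the Batf-deficient label, a 63.6-fold difference. Lgals4, a galectin of gut epithelium, was at 1581 ± 90.9 against 62.7 ± 7.44 CPM. Pigr, the receptor that carries IgA across the epithelium, was at 759 ± 64.4 against 40.9 ± 2.12 CPM, and the membrane mucin Muc13 at 542 ± 42.0 against 31.6 ± 0.600 CPM. Villin and Krt20, both most abundant in mature villus cells, were thus the most strongly lower members of this group.

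The transcription factors that specify the intestine were measured at lower levels. Hnf4a, a nuclear receptor of absorptive differentiation, had 195, 178 and 214 against 5.11, 4.96 and 4.09 CPM (log2 fold change -5.39). Cdx1, a homeobox factor of intestinal identity, had 82.7 ± 2.00 against 5.01 ± 0.858 CPM (-4.02). Its relative Cdx2 had 14.7, 11.5 and 8.60 against 2.21, 1.84 and 1.77 CPM, and its log2 fold change of -2.58 (with an SE of 0.34 and, by edgeR, an adjusted p = 3.29e-05) was the smallest of this group. Cdx2 rested on 13 to 22 counts per labelled Batf-deficient library.

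**Figure D2:**
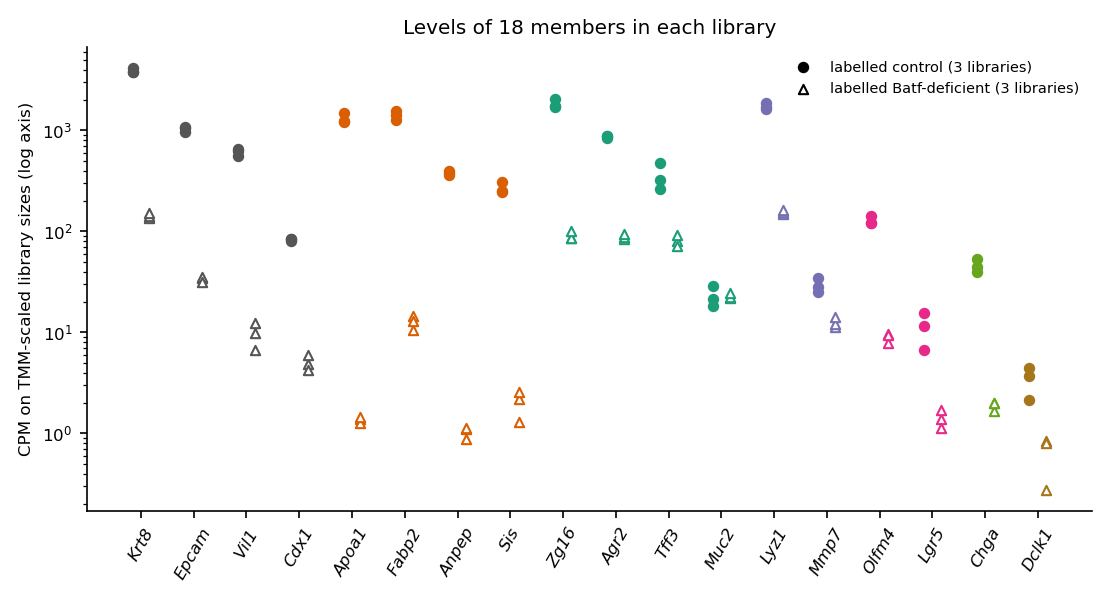
CPM of 18 members in each of the 6 libraries, on a log axis; filled circles are labelled control and open triangles labelled Batf-deficient libraries. The groups are apart for 17 of the 18, and Muc2 alone overlaps, with 18.2 to 28.7 CPM against 22.1 to 24.6 CPM.

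Enterocyte genes were lower by the largest factors. All 13 were called, with log2 fold changes from -13.75 to -5.58 and a median of -8.96 (the values of Lct and Apoc3, which had no counts in one group, are fitted and depend on the prior count), and their summed level was 5633 ± 403 against 27.1 ± 3.43 CPM, a 208-fold difference. All 13 had a log2 fold change of -5 or below, as did 4 of the other members, where 5.32% of all genes tested were called that low. All 8 members at -8 or below were enterocyte genes, against 1.61% of all genes.

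Lipoprotein genes were among those with the fewest counts left. Apoa1, which encodes the main apolipoprotein of high-density lipoprotein (chromosome 9, 46228580 to 46230466), was at 1206, 1252 and 1478 CPM in the labelled control and 1.38, 1.28 and 1.45 CPM in those with the Batf-deficient label, a 959-fold difference (log2 fold change -9.88, with an SE of 0.16 and, by edgeR, an adjusted p = 7.10e-13). Its neighbour Apoa4, an apolipoprotein made on fat absorption (46240696 to 46243459), had 4132, 6382 and 9105 counts against 1, 0 and 0 counts. The ratio of counts per scaled total was 11058 (95% counting interval 1984 to 436776). Apoc3, an inhibitor of lipoprotein lipase that lies between them on the other strand (46232933 to 46235636), had 811, 1515 and 2000 counts and none in any labelled Batf-deficient library. Against a floor of 3 counts over the group it was at least 813-fold lower. Of these 3 adjacent genes, only Apoa1 was still counted in every labelled Batf-deficient library, at 9 to 18 counts.

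Assembly of chylomicrons needs Apob, the structural protein of the particle, and Mttp, the lipid transfer protein that loads it. Apob was at 111, 110 and 116 against 0.691, 0.425 and 0.562 CPM, a 201-fold difference. Mttp was at 285, 277 and 292 against 8.29, 4.96 and 4.90 CPM, a 47.1-fold difference and the smallest among the enterocyte genes.

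The genes of cytosolic lipid and retinol carriers differed from each other. Fabp1 and Fabp2 encode the liver-type and intestinal-type fatty acid binding proteins, both abundant in enterocytes. Fabp1 was at 383, 489 and 480 against 0.276, 0.283 and 0.482 CPM, a 1297-fold difference. Fabp2 was at 1255, 1565 and 1437 against 14.5, 10.5 and 12.9 CPM, a 112-fold difference. Rbp2, the retinol binding protein of enterocytes, was at 282 ± 27.1 against 0.520 ± 0.221 CPM. Fabp2, with 74 to 161 counts per labelled Batf-deficient library, had the most counts of the enterocyte members there.

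Brush border enzymes and transporters completed the group. Lct, which encodes lactase, had 1359, 2350 and 3004 counts in the labelled control and none in any labelled Batf-deficient library, at least 1261-fold lower. Sis, sucrase-isomaltase, was at 250, 308 and 245 against 2.21, 2.55 and 1.28 CPM (log2 fold change -7.13, with an SE of 0.21 and, by edgeR, an adjusted p = 6.51e-11). Alpi, intestinal alkaline phosphatase, was at 238 ± 33.6 against 0.459 ± 0.210 CPM, and Anpep, aminopeptidase N, at 379 ± 20.2 against 1.04 ± 0.137 CPM. Slc5a1, the sodium-coupled glucose transporter, was at 252 ± 15.98 against 2.07 ± 0.846 CPM. Thus every digestive enzyme of the set lay above 200 CPM in each labelled control library except Lct, and below 3 CPM in each labelled Batf-deficient library.

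Promoters of these co-varying genes are given from RefSeq on build GRCm38.p6, from 250 bases before to 50 bases after the start site. Of the 43 members 35 had an entry. Both strands were searched for CAATAAA and CCATAAA, forms of the CDX homeobox site, for CAAAGTCCA, a form of the HNF4 site, and for a form of the HNF1 site. The CDX forms share ATAAA with the TATA box motif TATAAA. Matches are in capitals, and Muc2 is shown as the member of no clear difference, with no match. The enterocyte promoters shown were picked because they hold a match. The other enterocyte members with an entry, among them Apoa1, Apoa4 and Lct, hold none. The sequences shown therefore do not compare matches with fold changes.
Sis (chr3:72967814-72968113, minus strand): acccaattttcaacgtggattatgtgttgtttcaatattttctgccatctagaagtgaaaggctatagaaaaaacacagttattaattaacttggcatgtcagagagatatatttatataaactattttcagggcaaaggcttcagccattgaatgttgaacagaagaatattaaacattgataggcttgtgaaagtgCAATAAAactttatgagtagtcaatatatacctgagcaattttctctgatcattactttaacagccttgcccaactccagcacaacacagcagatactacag
Fabp2 (chr3:122894822-122895121, plus strand): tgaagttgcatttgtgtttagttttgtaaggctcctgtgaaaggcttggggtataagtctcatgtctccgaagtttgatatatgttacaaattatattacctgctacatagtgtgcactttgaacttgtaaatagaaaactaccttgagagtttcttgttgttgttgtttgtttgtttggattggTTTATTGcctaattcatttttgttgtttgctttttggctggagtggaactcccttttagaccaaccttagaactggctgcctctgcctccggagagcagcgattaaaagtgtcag
Fabp1 (chr6:71199629-71199928, plus strand): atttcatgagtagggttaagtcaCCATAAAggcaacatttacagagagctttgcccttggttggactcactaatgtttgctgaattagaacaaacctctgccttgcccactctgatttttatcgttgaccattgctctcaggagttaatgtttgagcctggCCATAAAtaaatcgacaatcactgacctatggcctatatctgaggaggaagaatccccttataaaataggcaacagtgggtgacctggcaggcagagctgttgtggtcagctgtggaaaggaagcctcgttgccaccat
Alpi (chr1:87101557-87101856, minus strand): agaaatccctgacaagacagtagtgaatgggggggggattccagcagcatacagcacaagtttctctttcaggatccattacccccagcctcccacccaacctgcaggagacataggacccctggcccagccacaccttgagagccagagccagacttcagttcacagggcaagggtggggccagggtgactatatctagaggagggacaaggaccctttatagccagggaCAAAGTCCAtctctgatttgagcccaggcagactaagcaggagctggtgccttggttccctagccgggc
Muc2 (chr7:141690090-141690389, plus strand): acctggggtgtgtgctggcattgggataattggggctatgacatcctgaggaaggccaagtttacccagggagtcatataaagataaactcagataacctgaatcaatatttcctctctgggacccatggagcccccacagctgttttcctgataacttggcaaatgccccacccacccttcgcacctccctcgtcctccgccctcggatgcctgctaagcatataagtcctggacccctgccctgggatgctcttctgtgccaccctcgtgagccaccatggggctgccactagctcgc

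CAATAAA was present in Sis and Fabp2 of 12 enterocyte members with an entry and in 3 of 35 members, which have 40 promoter windows in all because 5 members have a pair of entries. It was present in 3 of the 40 windows, against 4.60% of 32851 promoter windows of all genes. In Sis it began 52 bases before the start site, and in Fabp2, on the reverse strand, 65 bases before it. CCATAAA was present in 3 of the 40 windows, against 2.75% of all windows, and occurred at a pair of places in Fabp1. CAAAGTCCA was present in 2 of the 40 windows, those of Alpi and Muc13 (0.475% of all windows), and the HNF1 form in none (0.399%). These matches describe letters in a window and are not evidence of binding.

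Goblet cell genes were lower by smaller factors, and not all of them were called. Of 7 tested, 6 were lower, with log2 fold changes from -4.77 to -2.13, and 1 was not called. Their summed level, Atoh1 included, was 4376 ± 387 against 389 ± 26.4 CPM, an 11.2-fold difference. Zg16, a lectin-like protein of mucus (chromosome 7, 127050156 to 127087328, minus strand), was at 1707, 1765 and 2053 against 85.4, 86.3 and 100.1 CPM, a log2 fold change of -4.34 (with an SE of 0.12 and, by edgeR, an adjusted p = 3.37e-11). Clca1, a secreted mucus-processing protease, was at 280, 239 and 315 against 11.1, 9.50 and 9.95 CPM.

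Fcgbp, a mucus protein that binds IgG Fc, was at 992, 882 and 1073 against 91.6, 90.0 and 95.5 CPM, a 10.6-fold difference. Agr2, a disulfide isomerase needed for mucin folding, was at 873, 889 and 851 against 84.6, 87.3 and 95.2 CPM, a 9.78-fold difference. Tff3, the trefoil peptide of goblet cells, was at 266, 325 and 481 against 81.1, 71.6 and 92.0 CPM, a 4.38-fold difference (log2 fold change -2.13, with an SE of 0.20 and, by edgeR, an adjusted p = 6.32e-06). The labelled control libraries differed among themselves more for Tff3 than for Agr2, and no library of one group reached the other.

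Muc2, the gel-forming mucin of goblet cells (chromosome 7, 141690340 to 141754693), did not follow the others. It was at 21.6, 18.2 and 28.7 CPM in the labelled control libraries and at 22.1, 22.5 and 24.6 CPM in those with the Batf-deficient label. The ranges overlapped, and the log2 fold change was 0.02 (with an SE of 0.19 and, by edgeR, an adjusted p = 0.947). Scaling on the panel of lymphoid genes gave -2.33 (edgeR adjusted p = 8.07e-08), where the median of all genes was also -2.33. For every 100 counts of Zg16 there were 1.27, 1.03 and 1.40 counts of Muc2 in the labelled control libraries. In the labelled Batf-deficient libraries there were 25.9, 26.1 and 24.6 (exact two-sided permutation p = 0.1, the smallest possible). Such a comparison within each library needs no scaling. For every 100 counts of Fcgbp there were 2.31 ± 0.324 counts of Muc2 in the labelled control and 25.0 ± 0.834 in the labelled Batf-deficient libraries.

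The factors of secretory fate were scarce. Spdef, an ETS factor of goblet maturation, was at 25.6, 14.8 and 20.98 against 2.07, 2.41 and 1.45 CPM, a log2 fold change of -3.40. Atoh1, the master factor of secretory progenitors, had 38, 72 and 1 counts in the labelled control and 1, 2 and 3 counts in the labelled Batf-deficient libraries. Labelled control replicate 3 thus stood with the other group, and the filter left the gene out. Over the 6 alternative fits that kept it, the log2 fold change ran from -4.04 to -3.31 and the edgeR adjusted p from 0.000226 to 0.0738. It was called lower without the filter (-3.49, edgeR adjusted p = 0.0212) and without that replicate (-4.04), and was not called in the other 4.

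Of the Paneth cell genes, Lyz1, the lysozyme of these cells (chromosome 10, 117287797 to 117292868, minus strand), was at 1720, 1646 and 1849 against 150.1, 154 and 164 CPM, a log2 fold change of -3.47 (with an SE of 0.10 and, by edgeR, an adjusted p = 3.94e-11). Lyz1 is near-identical in sequence to Lyz2, the lysozyme of macrophages, so reads of these genes may be assigned to either. Lyz2 was at 209, 211 and 196 CPM in the labelled control and at 28.2, 23.5 and 25.4 CPM in the other libraries. For every 100 counts of Lyz2 there were 848 ± 83.9 counts of Lyz1 in the labelled control and 611 ± 68.7 in the labelled Batf-deficient libraries. Mmp7, the protease that activates defensins in the mouse, was at 28.1, 34.4 and 25.1 against 11.3, 12.0 and 14.3 CPM. Its log2 fold change of -1.21 (with an SE of 0.19 and, by edgeR, an adjusted p = 0.000153) was the smallest in size among the members called.

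Both stem cell genes were lower. Olfm4, an abundant marker of crypt base columnar cells, was at 142, 120.1 and 121 against 9.54, 7.79 and 9.39 CPM, a 14.3-fold difference. Lgr5, the R-spondin receptor that defines these cells, was at 6.68, 11.5 and 15.5 against 1.38, 1.70 and 1.12 CPM (log2 fold change -3.03, with an SE of 0.41 and, by edgeR, an adjusted p = 4.01e-05). Lgr5 rested on 10 to 14 counts per labelled Batf-deficient library.

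Enteroendocrine granule proteins were lower to much the same degree as the general markers. Chga, chromogranin A, was at 44.0, 40.1 and 52.8 against 1.66, 1.98 and 2.01 CPM (log2 fold change -4.58). Chgb, chromogranin B, was at 65.1, 70.6 and 78.9 against 2.21, 2.13 and 2.81 CPM (log2 fold change -4.87). For both genes the groups were far apart. Dclk1, a kinase that marks tuft cells and is also made by neurons, was at 3.67, 4.40 and 2.12 against 0.276, 0.850 and 0.803 CPM. Its log2 fold change was -2.35 (with an SE of 0.59 and, by edgeR, an adjusted p = 0.00413), the largest p among the 41 called members, and it rested on 2, 6 and 10 counts in the labelled Batf-deficient libraries.

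The make-up of the epithelial RNA was then compared within each library, as the share of each lineage in the summed counts of the 43 genes, which does not depend on library scaling. Enterocyte genes held 22.1%, 24.1% and 23.1% of these counts in the labelled control libraries and 2.99%, 2.39% and 2.30% in the labelled Batf-deficient libraries. Goblet genes held 17.7%, 17.5% and 18.6% against 36.6%, 36.3% and 37.0%. Paneth genes held 7.24% ± 0.176 against 15.9% ± 0.367, and general genes 50.7% ± 0.809 against 43.5% ± 0.119. Lyz1, for which myeloid cells were listed as a further source, carried most of the Paneth share. Without members listed for other tissues, 22 were left, with Mmp7 the only Paneth gene. Zg16, for which no other source was listed, stayed in, and the listing may not be complete. The Paneth difference was then 2.62 percentage points in place of 8.65. The goblet difference was 33.5 in place of 18.7 and the enterocyte difference -27.3 in place of -20.5. Thus goblet and Paneth genes together outweighed enterocyte genes slightly in the labelled control libraries and by a wide margin in the others.

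Stem cell genes held 0.571% ± 0.0551 against 0.972% ± 0.0727 of the member counts, enteroendocrine genes 0.479% ± 0.0239 against 0.401% ± 0.0257, and the tuft cell gene 0.0141% ± 0.00535 against 0.0603% ± 0.0298. For each of the 7 lineages the groups did not overlap, and the exact two-sided permutation p was 0.1, also after Benjamini-Hochberg adjustment over the 7 comparisons. That is the smallest p these 6 libraries allow, so no share could pass 0.05. Shares of one total are not independent, because a smaller share of one lineage raises the others. The labelled Batf-deficient shares rest on 7198 to 14107 member counts per library.

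**Figure D3:**
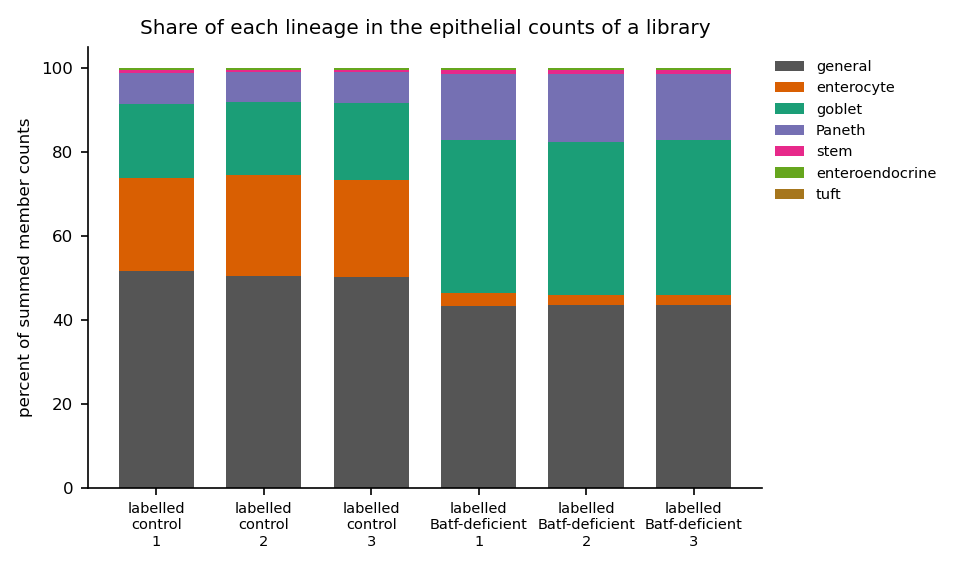
Share of each lineage in the summed counts of the 43 members (y axis, percent) as stacked bars, 1 bar per library. The enterocyte share is 22.1% to 24.1% in the labelled control and 2.30% to 2.99% in the labelled Batf-deficient libraries, and the goblet share 17.5% to 18.6% and 36.3% to 37.0%.

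Single genes did not all follow their lineage. All 13 enterocyte members had a smaller mean share of the member counts in the labelled Batf-deficient libraries, as did 10 of the 15 general members. Of the 8 goblet members 7 had a larger mean share there, and Clca1 a smaller one (1.14% ± 0.112 against 0.960% ± 0.0982), with overlapping groups. Apoa1 held 5.37% ± 0.289 against 0.129% ± 0.00441 and Fabp2 5.82% ± 0.681 against 1.19% ± 0.192. At the other end Muc2 held 0.0931% ± 0.0168 against 2.17% ± 0.0356, Mmp7 0.120% ± 0.0243 against 1.18% ± 0.0831 and Tff3 1.45% ± 0.367 against 7.66% ± 0.576. Krt8 took the largest share in the labelled control, at 16.1% ± 0.178, and 13.4% ± 0.397 in the others, while Lyz1 took 7.12% ± 0.186 and 14.7% ± 0.355. Counted against Krt8 alone, every 100 counts of it came with 33.4 ± 2.13 counts of Apoa1 in the labelled control and 0.962 ± 0.0616 in the labelled Batf-deficient libraries. For Lyz1 these numbers were 44.3 ± 0.859 and 109.9 ± 1.77.

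**Figure D4:**
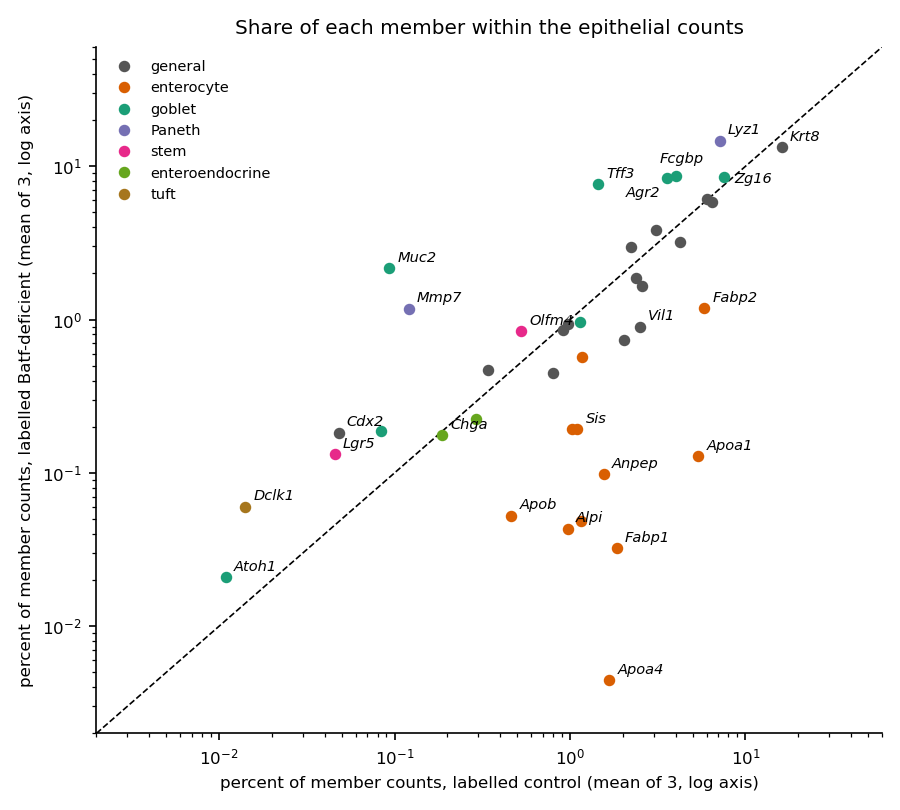
Mean share of each member in the summed member counts, labelled control (x axis) against labelled Batf-deficient libraries (y axis), in percent on log axes; the dashed line marks equal shares. Enterocyte members lie below the line and Muc2, Mmp7 and Tff3 farthest above it; Lct and Apoc3, at 0 in the labelled Batf-deficient libraries, are not drawn.

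Levels were ranked between genes only per kilobase of exon in GENCODE M21 gene models, which may differ from the models the authors counted on. In the labelled control libraries Zg16 came first, at 2699.9 CPM per kilobase, followed by Krt8 (2004), Fabp2 (1471), Lyz1 (1376) and Apoa1 (1268). In the labelled Batf-deficient libraries Tff3 came first, at 165 CPM per kilobase, followed by Zg16 (133), Lyz1 (124), Agr2 (114) and Krt8 (72.7). Apoa1 took place 25 and Fabp1 place 32 there, where they had held places 5 and 9. Genes listed for goblet and Paneth cells thus filled the first 4 places in the libraries labelled Batf-deficient. Over the 42 members tested, Spearman's rho across genes between the log2 fold change and exonic length was 0.00381, given as a description of genes measured in the same libraries.

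Further genes of the same lineages were taken from a second list of 139, chosen with earlier results of these data known. Of these, 138 were in the table and 122 were tested. There were 113 called lower and 6 higher, where 34.1% of all genes tested were lower and 30.2% higher. The median log2 fold change was -4.27, or -4.21 with genes at 0 set to their bound. By lineage, 29 of 30 general, 32 of 34 enterocyte, 11 of 12 goblet, 14 of 14 Paneth, 7 of 9 stem, 17 of 18 enteroendocrine and 3 of 5 tuft cell genes tested were lower. The median was -4.49 for general, -5.56 for enterocyte, -3.07 for goblet and -2.41 for Paneth genes.

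Among further enterocyte genes, the brush border amino acid transporter Slc6a19 had 1340, 2416 and 3106 counts against 0, 0 and 1. Cubn, a receptor for the vitamin B12 carrier, and Cyp3a11, a drug-metabolizing enzyme, had no count in any labelled Batf-deficient library and were at least 352-fold and 247-fold lower. The further goblet gene with the lowest p, Klk1, a kallikrein that other glands also make, was at 379 ± 43.9 against 7.14 ± 1.43 CPM.

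The Paneth cell defensins differed from the enterocyte genes. Defa24, an alpha-defensin, was at 2635, 2914 and 3732 against 644, 624 and 662 CPM, a log2 fold change of -2.27 (with an SE of 0.12 and, by edgeR, an adjusted p = 1.23e-08). Defa21 had the smallest difference of the Paneth genes, at 198 ± 41.5 against 93.4 ± 14.0 CPM. Defensins form a family of near-identical genes, so values of single members are uncertain. Intelectin Itln1, another Paneth and goblet product, was at 1464, 1387 and 1352 against 63.3, 67.0 and 75.7 CPM. Itln1 was thus lower by a factor like that of the general markers, and each of the defensins tested by less.

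Some hormone genes of enteroendocrine cells were at or near 0 and others were not. Sst, somatostatin, had 207, 418 and 413 counts against 0, 1 and 0, a ratio of 585 (95% counting interval 105 to 23130). Ghrl, ghrelin, had 1414 counts in all against 5, a ratio of 159 (68.1 to 492). Gcg, which encodes glucagon and its relatives, was at 9.59, 13.9 and 19.1 against 4.42, 4.11 and 4.90 CPM, a smaller difference (log2 fold change -1.66, with an SE of 0.30 and, by edgeR, an adjusted p = 0.000473). Among tuft cell genes, Ptgs1, a cyclooxygenase, was at 20.7 ± 6.63 against 2.41 ± 0.528 CPM. The tuft cell factor Pou2f3 had 0, 20 and 9 counts against none and was left out by the filter.

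The 6 further genes called higher are each also made outside the epithelium, but so are genes called lower, such as Klk1. The source of the reads of these 6 genes was not tested. Axin2 and Rnf43, targets of Wnt signalling that mark stem cells in the crypt, were at 10.3 ± 0.900 against 26.4 ± 1.97 CPM and at 14.7 ± 4.29 against 37.1 ± 3.18 CPM. Avil, an actin regulator of tuft cells, was at 9.06 ± 1.19 against 54.1 ± 0.828 CPM, and Plcb2, a phospholipase of tuft and blood cells, at 9.41 ± 1.504 against 23.9 ± 0.970 CPM. The others were Dgat1, an enzyme of triglyceride synthesis, at 993 ± 2.87 against 1776 ± 36.9 CPM, and Cpe, a prohormone-processing carboxypeptidase, at 19.6 ± 5.01 against 43.2 ± 1.31 CPM. With scaling on the panel of lymphoid genes none of the 6 was called higher. That scaling moved the median of all genes to -2.33 and left 2.14% of them called higher, so it does not test these 6. Pkp3, Espn and Galnt12 were not called, at log2 fold changes of -0.08, -0.00234 and 0.07.

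**Figure D5:**
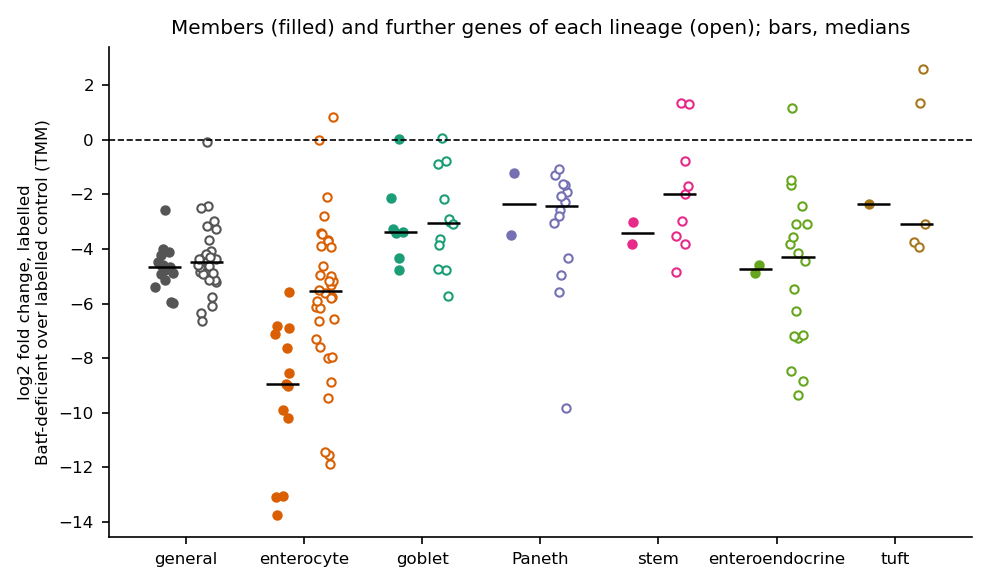
Log2 fold change (y axis, TMM scaling) of the members (filled) and of further genes of the same lineages (open) that were tested, with medians as bars. The enterocyte medians are -8.96 and -5.56 and the Paneth medians -2.34 and -2.41.

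Some members are also made by other organs, and many markers of these differed between the groups. For comparison with the lists below, 34.1% of all genes tested were called lower and 30.2% higher. The exocrine pancreas was listed as a further source for 10 of the members, such as the keratins Krt8, Krt18 and Krt19. All 10 were lower, with log2 fold changes from -5.39 to -3.29, beside a median of -14.93 for the acinar genes (-13.36 with genes at 0 set to their bound). The summed acinar level was 67433 to 72590 CPM in the labelled control and 6.09 to 7.63 CPM in those with the Batf-deficient label. For 10 markers of pancreatic duct the sums were 693 to 735 and 40.8 to 46.7 CPM, with 8 of 8 tested lower. Of the 22 members with no further source listed, 20 of 21 tested were lower, with a median of -4.65. The listing gave at most 1 entry per member and may not be complete. The part of pancreatic RNA in the level of any member was not tested.

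Liver was the further source listed for 5 members, Apoa1, Apob, Apoc3, Mttp and Fabp1. Alb, the defining transcript of liver, had 8, 38 and 42 counts in the labelled control and none in the other libraries, and the 8 hepatocyte markers in the table summed to 25.6 to 35.0 and 7.63 to 12.4 CPM. Of the 3 hepatocyte markers tested, 2 were lower and 1, the cytochrome Cyp2e1, was higher, at 2.72 ± 0.501 against 7.31 ± 2.29 CPM (edgeR adjusted p = 0.00602). Apoa2, left out by the filter, was at 0.491 ± 0.145 against 0.486 ± 0.525 CPM. Islets also make chromogranins. The islet hormone Iapp had 0, 5 and 12 counts and none, and the 5 islet markers in the table summed to 56.5 to 58.8 and 4.39 to 5.06 CPM, most of it from Gcg, Sst and Slc2a2, which the intestinal epithelium also makes. Insulin genes were not analysed here. Macrophage markers summed to 519 to 547 and 38.8 to 46.0 CPM, with 9 of 9 tested lower. Myeloid cells were the further source listed for Lyz1 and Anpep. Neutrophil markers, beside Olfm4, summed to 2.80 to 9.25 and 1.66 to 2.33 CPM. Of the 2 tested, Ltf was lower, with 42, 82 and 31 counts against 2, 0 and 0, and Csf3r was not called. Ngp, left out by the filter, was at 0 in the labelled control and had 0, 1 and 3 counts in the others.

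Markers of gastric-type glands were present as well. Tff2, a trefoil peptide of mucous neck cells and of the Brunner glands of the duodenum, was at 1055, 1264 and 1720 against 214, 194 and 225 CPM, and Gkn3, a gastrokine, at 1645, 1600 and 1745 against 91.0, 89.9 and 112 CPM. Other markers of the list differed by more. Pgc was at 646 ± 62.5 against 4.43 ± 0.577 CPM, and Gkn1 had 289, 456 and 525 counts against none. Atp4a, the acid pump of the stomach, had 0, 6 and 0 counts against 1, 0 and 0 and was left out by the filter. The 8 gastric markers in the table summed to 3433 to 4249 and 288 to 342 CPM. All 6 of them that were tested were lower, with a median log2 fold change of -7.29. Tff2 (-2.67) and Gkn3 (-4.09) had the smallest differences. Stromal markers, of which 10 of 11 were lower, and plasma cell markers, of which 5 of 8 were lower and 2 higher, moved with the groups beside the epithelial genes, at 1018 to 1105 against 62.1 to 67.9 CPM and at 8763 to 9060 against 1140.0 to 1170 CPM. The part of these tissues in the epithelial result was not tested.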

How the data were processed

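The authors deposited raw counts per gene symbol, 1 column for each of 6 libraries, on mm10 (submitters' processing notes). No source used here gives the aligner, counter, annotation or use of strand. Smart-seq2 has no molecular identifiers, so intervals and floors cover counting error only. Counts were analysed with edgeR 4.0.16 in R 4.3.3 (filterByExpr with a minimum count of 10, TMM, robust quasi-likelihood test, group as the only term, Benjamini-Hochberg over 15261 genes). DESeq2 1.42.0 and limma 3.58.1 were alternatives. The test was checked on simulated data with 200 changed genes. Far more genes were called here, so that check does not cover a difference between groups of this extent. Lineage shares were compared by exact permutation over libraries. Members and lists were chosen with earlier results of these data known. The naming rule gave values per library for the members with the highest mean level (up to 6 general, 6 enterocyte and 5 goblet, and all of the other lineages) and for every member not called or left out by the filter, up to 3 further genes per lineage with the lowest p, and up to 3 genes per other list; genes named beyond it were chosen after their values were seen. Labelled Batf-deficient replicates 1 and 2 differed least (mean chi-square per gene 2.36, against 14.8 to 24.2 for other pairs within a group) and were kept as separate samples, and their average was an alternative. If replicates are not separate animals, p-values measure only the spread between these libraries.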

Additional observations from a re-analysis of the deposited data

How the results depend on the processing

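All 41 called members were lower in each of the 13 alternative fits (533 of 533 values). Members called lower numbered 41 to 42 with 1 library left out, 41 with the replicate number as a block (replicate block), and 41 with labelled Batf-deficient replicates 1 and 2 averaged. The block was not used, because deviations of same-numbered libraries correlated at 0.0144 to 0.0608, and it changed no call of a member; calls over all genes were 9694 with the block, 8752 to 10135 with 1 library left out and 9821 in the reported fit. Muc2, never called except with panel scaling, changed sign: -0.36 with library totals, -2.33 with panel scaling, -0.0244 with DESeq2, -0.0104 without the filter, -0.000226 with replicates averaged, and -0.12 to 0.22 with 1 library left out (-0.03 and -0.12 without labelled control replicates 1 and 2, -0.00809 and -0.11 without labelled Batf-deficient replicates 2 and 3). Batf was -1.06 with panel scaling, and further genes called higher were 0 there. On that scaling the median of all genes was -2.33, and 2.14% of them were called higher. Differences in percentage points, labelled Batf-deficient minus labelled control, were as follows. The members' share of all counts differed by -2.69, by -2.25 without Krt8, by -2.33 on TMM-scaled sizes and by -2.73 to -2.63 with 1 library left out. Without Krt8 the enterocyte, goblet, Paneth and enteroendocrine shares of member counts differed by -24.6, 20.9, 9.73 and -0.108, where all members gave -20.5, 18.7, 8.65 and -0.0785. Without members listed for other tissues, the general, enterocyte, goblet, Paneth and stem shares differed by -9.05, -27.3, 33.5, 2.62 and 0.216. The Paneth value then rested on Mmp7 alone and the stem value on Lgr5 alone, and no enteroendocrine or tuft member was left. With 1 library left out the general, enterocyte, goblet and Paneth differences were -7.47 to -6.73, -21.0 to -20.03, 18.5 to 19.0 and 8.45 to 8.80, and the stem, enteroendocrine and tuft differences 0.359 to 0.431, -0.0907 to -0.0647 and 0.0347 to 0.0630. Members with few counts in the labelled Batf-deficient libraries are limited by depth.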
